A study of Mus musculus with 42 samples.

Results

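The 35 genes described here are the S phase and DNA replication genes Mcm2, Mcm3, Mcm4, Mcm5, Mcm6, Mcm7, Mcm10, Pcna, Gins1, Gins2, Cdc6, Cdc45, Cdt1, Rrm1, Rrm2, Tyms, Tk1, Ung, Fen1, Lig1, Rpa2, Rfc3, Rfc4, Pold1, Pole, Prim1, Chaf1a, Chaf1b, Uhrf1, Ccne1, Ccne2, Ccnd1, E2f1, E2f8 and Hells. They were picked out by gene symbol, a rule that sets no threshold on a measured value, from the 55471 gene entries of the RNA-seq count table, and all 35 were among the 17609 genes with enough counts to be tested. The cells were primary hippocampal neurons from NMRI mice at embryonic day 16, kept for 6 to 7 days in vitro. The treated cultures received 50 ng/ml BDNF (brain-derived neurotrophic factor) for 20 min and were then washed (BDNF, n = 6). Other cultures were exposed for 24 h to small extracellular vesicles (EVs) that had been collected from the medium of control-treated neurons (Ctrl-EV, n = 3) or of BDNF-treated neurons (BDNF-EV, n = 3). The controls received the vehicle alone (Ctrl, n = 6). The labels do not state how long after BDNF the hippocampal cells were lysed, and no label says whether libraries of a group came from separate cultures or animals. The p-values below therefore measure the spread between these libraries, which may be technical.

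DNA replication is prepared in G1 phase, when the loaders Cdc6 and Cdt1 place the MCM helicase ring on replication origins, and begins in S phase, when Mcm10, Cdc45 and the GINS complex turn that ring into an active helicase. Polymerases, a sliding clamp and its loader then copy the strands, while ribonucleotide reductase and thymidylate synthase supply the nucleotides and the CAF-1 complex packs the new DNA into chromatin. Cyclin D1 and the E-type cyclins lead cells into S phase, and the E2F transcription factors drive most of these genes. Mature neurons have left the cell cycle, but cultures of embryonic hippocampus can also hold dividing progenitors and glia.

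Libraries held 16274937 to 36835780 gene counts, and single members held 34 to 3084 counts per library. Levels are library-size-scaled counts (CPM) adjusted with TMM factors, which even out differences in library composition. They are not divided by gene length, so they compare 1 gene between libraries and not genes with each other. Libraries are named by group and set, the number they carry in the labels. Set 1 is batch a, sets 2 and 3 are batch b, sets 4 and 5 are batch c and set 6 is batch d. The labels do not say what a batch is, and EV-exposed libraries lie only in sets 1 to 3. No 2 libraries held identical counts. All 9 neuronal markers were detected, with Map2 at 1993 CPM in BDNF libraries and 1845 CPM in Ctrl libraries on average. Markers of other cells were present too, among them Gfap of astrocytes (614 CPM in BDNF libraries and 721 CPM in Ctrl libraries) and Pdgfra of oligodendrocyte precursors (303 CPM in BDNF libraries and 272 CPM in Ctrl libraries).

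After direct BDNF treatment, 11 of the 35 genes were higher than in Ctrl libraries and none was lower. The 11 were E2f8, Mcm10, Uhrf1, Cdc6, Mcm5, Ccnd1, Mcm3, Rrm2, Pole, Chaf1b and Cdc45, with log2 fold changes of 0.27 to 0.53. The call was an adjusted p under 0.05 in edgeR's quasi-likelihood test with the batch as a term, adjusted over all 17609 genes. The share of called members was 31.4%, beside 13.8% of all tested genes called in either direction, 7.5% called higher and 6.25% called lower. The median log2 fold change was 0.18 over the members and -0.00174 over all tested genes. Of the members, 33 had a positive log2 fold change, beside 49.4% of all tested genes. An unadjusted p under 0.05 (edgeR) was reached by 21 members and by 4697 of the 17609 tested genes. In bulk RNA, a change in the number of cells of a type and a change in RNA per cell cannot be told apart.

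These calls rest on comparing libraries within batches. Without the batch term 0 of the 35 members passed, and 843 of all genes did. The log2 fold changes of the 11 genes were 0.26 (Cdc45) to 0.54 (E2f8) in that fit, close to those with the term. For no member did every BDNF library exceed every Ctrl library, which held for 1.74% of all tested genes. The kit does not mark strand, and 4 of the 11 called genes overlap another gene (Cdc45, Pole, Ccnd1 and E2f8), so reads of those neighbours cannot be told apart from theirs. Within sets, BDNF was above Ctrl in all 6 sets for 5 members, Mcm10, Pole, Chaf1b, Ccnd1 and E2f8, and for 7.48% of all tested genes.

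**Figure D1:**
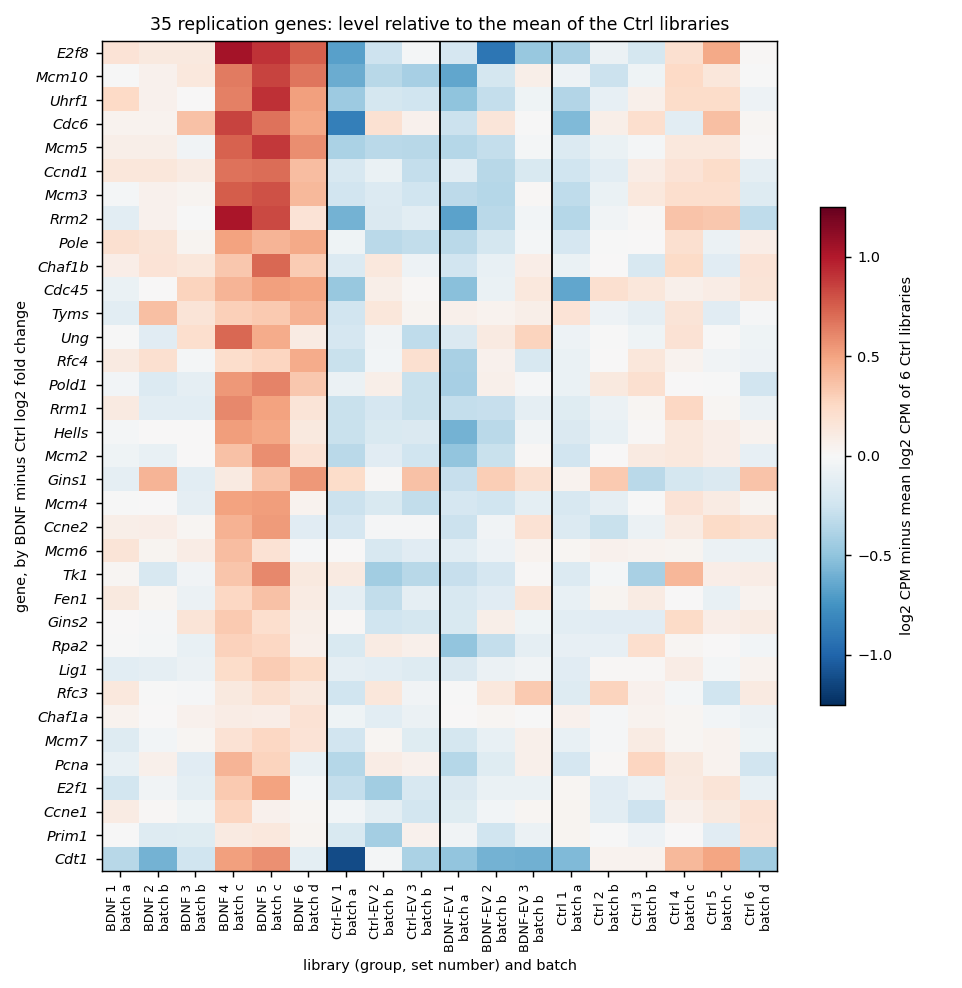
Level of each of the 35 genes in each of the 18 libraries, as log2 CPM minus the mean log2 CPM of the 6 Ctrl libraries; rows are ordered by the BDNF over Ctrl log2 fold change, columns run BDNF, Ctrl-EV, BDNF-EV, Ctrl. The BDNF libraries of sets 4 and 5 (batch c) and, for many genes, of set 6 (batch d) stand out as higher, while those of sets 1 to 3 lie near the Ctrl libraries.

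**Figure D2:**
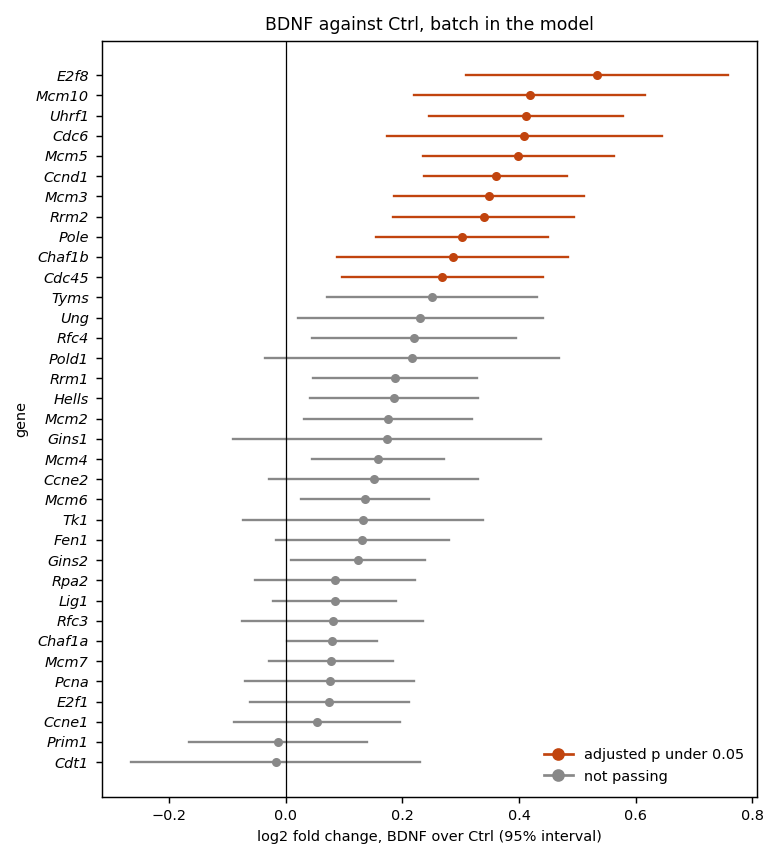
Log2 fold change of BDNF over Ctrl for each gene with its 95% interval from the fit with batch as a term. The 11 genes that passed lie between 0.27 (Cdc45) and 0.53 (E2f8), and only Prim1 and Cdt1 lie below 0.

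Among the MCM helicase subunits, Mcm3 and Mcm5 rose with BDNF and the other 4 did not pass. Mcm5 (chromosome 8, 75109468 to 75128439, build GRCm38.p6) stood at 22.9, 30.2 and 43.6 CPM (lowest, median and highest) in BDNF libraries, at 18.1, 18.8 and 18.6 CPM in Ctrl-EV sets 1 to 3, at 18.5, 19.3 and 23.3 CPM in BDNF-EV sets 1 to 3, and at 21.0, 23.6 and 26.0 CPM (lowest, median and highest) in Ctrl libraries. The 3 high BDNF libraries were those of sets 4, 5 and 6, and the others lay within the Ctrl range. The log2 fold change was 0.40 ± 0.08 (SE; adjusted p = 0.0017, edgeR), a 1.32-fold difference with a 95% interval of 1.18 to 1.48, and BDNF was higher in 5 of 6 sets. Mcm3 (chromosome 1, 20802966 to 20820312) stood at 22.2, 26.7 and 39.2 CPM in BDNF libraries, at 19.2, 20.1 and 19.04 CPM in Ctrl-EV libraries, at 18.0, 17.6 and 22.9 CPM in BDNF-EV libraries, and at 18.2, 23.05 and 26.2 CPM in Ctrl libraries. It had a log2 fold change of 0.35 ± 0.08 (adjusted p = 0.0045, edgeR), and again only sets 4 to 6 lay above the whole Ctrl range. Mcm2, Mcm4, Mcm6 and Mcm7, which belong to the same ring, had log2 fold changes of 0.08 to 0.18 with adjusted p of 0.058 to 0.361. For 4 of the 6 subunits of the ring the difference therefore did not pass.

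Of the factors that load and activate the helicase, Cdc6, Mcm10 and Cdc45 rose, while Cdt1, Gins1 and Gins2 did not pass. Mcm10 (chromosome 2, 4990724 to 5012791), which helps to start the loaded helicase, stood at 5.86, 7.81 and 10.6 CPM in BDNF libraries, at 3.82, 4.63 and 4.41 CPM in Ctrl-EV libraries, at 3.75, 5.04 and 6.20 CPM in BDNF-EV libraries, and at 4.86, 5.76 and 6.97 CPM in Ctrl libraries. Its log2 fold change was 0.42 ± 0.10 (adjusted p = 0.0041, edgeR), with BDNF higher in 6 of 6 sets. Cdc6 (chromosome 11, 98907709 to 98923942), an ATPase of the loading step, stood at 3.56, 4.67 and 6.22 CPM in BDNF libraries, at 1.91, 3.96 and 3.60 CPM in Ctrl-EV libraries, at 2.87, 3.85 and 3.45 CPM in BDNF-EV libraries, and at 2.36, 3.59 and 4.51 CPM in Ctrl libraries. The groups overlapped, and the log2 fold change was 0.41 ± 0.11 (adjusted p = 0.0176, edgeR). Its call was lost without BDNF 4 (adjusted p = 0.0514, edgeR), BDNF 6 (0.0570), Ctrl 4 (0.0594) or Ctrl 6 (0.0570).

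Cdc45 (chromosome 16, 18780447 to 18811972), a subunit of the active helicase, stood at 5.52, 7.48 and 8.35 CPM in BDNF libraries, at 4.22, 6.17 and 5.90 CPM in Ctrl-EV libraries, at 4.09, 5.54 and 6.43 CPM in BDNF-EV libraries, and at 3.72, 6.34 and 6.70 CPM in Ctrl libraries. The log2 fold change was 0.27 ± 0.08 (adjusted p = 0.0324, edgeR). The call was lost with DESeq2 (adjusted p = 0.0621) and when any of the BDNF or Ctrl libraries of sets 1, 4, 5 and 6 was left out, with adjusted p of 0.0576 to 0.102. Cdt1 (chromosome 8, 122568015 to 122573130), the partner of Cdc6 in loading, stood at 5.93, 7.86 and 13.2 CPM in BDNF libraries, at 4.11, 8.79 and 6.80 CPM in Ctrl-EV libraries, at 6.33, 5.90 and 5.86 CPM in BDNF-EV libraries, and at 6.08, 9.19 and 12.6 CPM in Ctrl libraries. The BDNF and Ctrl ranges nearly coincide, and the log2 fold change was -0.02 ± 0.12 (adjusted p = 0.95, edgeR). The GINS subunits Gins1 and Gins2 had log2 fold changes of 0.17 ± 0.13 and 0.12 ± 0.06.

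At the fork, 1 of 9 members rose. Pole (chromosome 5, 110286319 to 110337468), the catalytic subunit of the leading-strand polymerase epsilon, stood at 12.4, 15.0 and 17.1 CPM in BDNF libraries, at 11.6, 9.51 and 9.72 CPM in Ctrl-EV libraries, at 9.54, 10.4 and 11.9 CPM in BDNF-EV libraries, and at 10.4, 12.0 and 13.8 CPM in Ctrl libraries. BDNF was higher in 6 of 6 sets, by a log2 fold change of 0.30 ± 0.07 (adjusted p = 0.0056, edgeR). The other 8 were the clamp Pcna, the clamp loader subunits Rfc3 and Rfc4, the lagging-strand polymerase subunit Pold1, the primase subunit Prim1, the single-strand binding subunit Rpa2, the flap nuclease Fen1 and the ligase Lig1. Their log2 fold changes ran between -0.01 (Prim1) and 0.22 (Rfc4), with adjusted p of 0.0892 to 0.934. Pold1 was the least even among them, with 17.3, 18.2 and 15.0 CPM in BDNF sets 4 to 6 against 11.9, 11.9 and 10.1 CPM in Ctrl sets 4 to 6, and 11.6, 10.5 and 11.0 CPM in BDNF sets 1 to 3 against 11.2, 12.9 and 13.6 CPM in Ctrl sets 1 to 3.

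Of the 5 genes of nucleotide supply and uracil removal, Rrm2 rose. Rrm2 (chromosome 12, 24708254 to 24714146), the small subunit of ribonucleotide reductase, stood at 16.7, 19.8 and 37.2 CPM in BDNF libraries, at 12.1, 16.1 and 16.7 CPM in Ctrl-EV libraries, at 11.5, 14.5 and 17.9 CPM in BDNF-EV libraries, and at 14.3, 18.1 and 23.4 CPM in Ctrl libraries. The 2 BDNF libraries above the Ctrl range were those of batch c, and the log2 fold change was 0.34 ± 0.08 (adjusted p = 0.0036, edgeR). Its partner subunit Rrm1, the thymidylate enzymes Tyms and Tk1, and Ung, the glycosylase that removes uracil from DNA, had log2 fold changes of 0.13 to 0.25 and adjusted p of 0.0581 to 0.434.

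Chaf1b and Uhrf1 rose among the 4 chromatin members, and Chaf1a and Hells did not pass. Uhrf1 (chromosome 17, 56303337 to 56323486), which brings the maintenance DNA methyltransferase to new DNA, stood at 16.0, 20.8 and 29.9 CPM in BDNF libraries, at 11.6, 13.6 and 13.3 CPM in Ctrl-EV libraries, at 11.2, 12.9 and 15.3 CPM in BDNF-EV libraries, and at 12.3, 15.9 and 18.6 CPM in Ctrl libraries. The BDNF libraries of sets 1, 4, 5 and 6 lay above the whole Ctrl range, and the log2 fold change was 0.41 ± 0.08 (adjusted p = 0.0012, edgeR). Chaf1b (chromosome 16, 93883900 to 93906115), the middle subunit of CAF-1, stood at 4.44, 4.97 and 6.89 CPM in BDNF libraries, at 3.71, 4.58 and 4.01 CPM in Ctrl-EV libraries, at 3.55, 3.94 and 4.45 CPM in BDNF-EV libraries, and at 3.65, 4.08 and 4.94 CPM in Ctrl libraries. Its log2 fold change of 0.29 ± 0.10 passed narrowly (adjusted p = 0.0479, edgeR) although BDNF was higher in 6 of 6 sets. The Chaf1b call was lost with the set as a block in place of the batch (adjusted p = 0.0674), with DESeq2 (0.094), and when any 1 of 15 libraries was left out. It held without BDNF 4, Ctrl 1 or Ctrl-EV 2, and the highest adjusted p was 0.152, without BDNF 5. Chaf1a, the large subunit of the same complex, had a log2 fold change of 0.08 ± 0.04, and Hells, a chromatin remodeller needed for DNA methylation, one of 0.19 ± 0.07 (adjusted p = 0.0798, edgeR).

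Ccnd1 and E2f8 rose among the 5 genes that control entry into S phase, and E2f1, Ccne1 and Ccne2 did not pass. Ccnd1 (chromosome 7, 144929931 to 144939831), cyclin D1 of the kinases that phosphorylate the retinoblastoma protein, stood at 79.1, 88.6 and 119 CPM in BDNF libraries, at 63.9, 69.3 and 59.7 CPM in Ctrl-EV libraries, at 67.1, 57.7 and 64.4 CPM in BDNF-EV libraries, and at 61.8, 73.1 and 86.0 CPM in Ctrl libraries. It had the lowest adjusted p of the 35 genes (0.000229, edgeR), with a log2 fold change of 0.36 ± 0.06 and BDNF higher in 6 of 6 sets. E2f8 (chromosome 7, 48866429 to 48882073), a repressor of the E2F family, stood at 5.09, 6.56 and 9.64 CPM in BDNF libraries, at 2.92, 3.91 and 4.59 CPM in Ctrl-EV libraries, at 4.04, 2.50 and 3.36 CPM in BDNF-EV libraries, and at 3.54, 4.59 and 6.49 CPM in Ctrl libraries. Its log2 fold change of 0.53 ± 0.11 was the largest of the 35 (adjusted p = 0.0014, edgeR), again with BDNF higher in 6 of 6 sets. The activator E2f1 and the E-type cyclins Ccne1 and Ccne2 had log2 fold changes of 0.05 to 0.15 and adjusted p of 0.279 to 0.672.

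**Figure D3:**
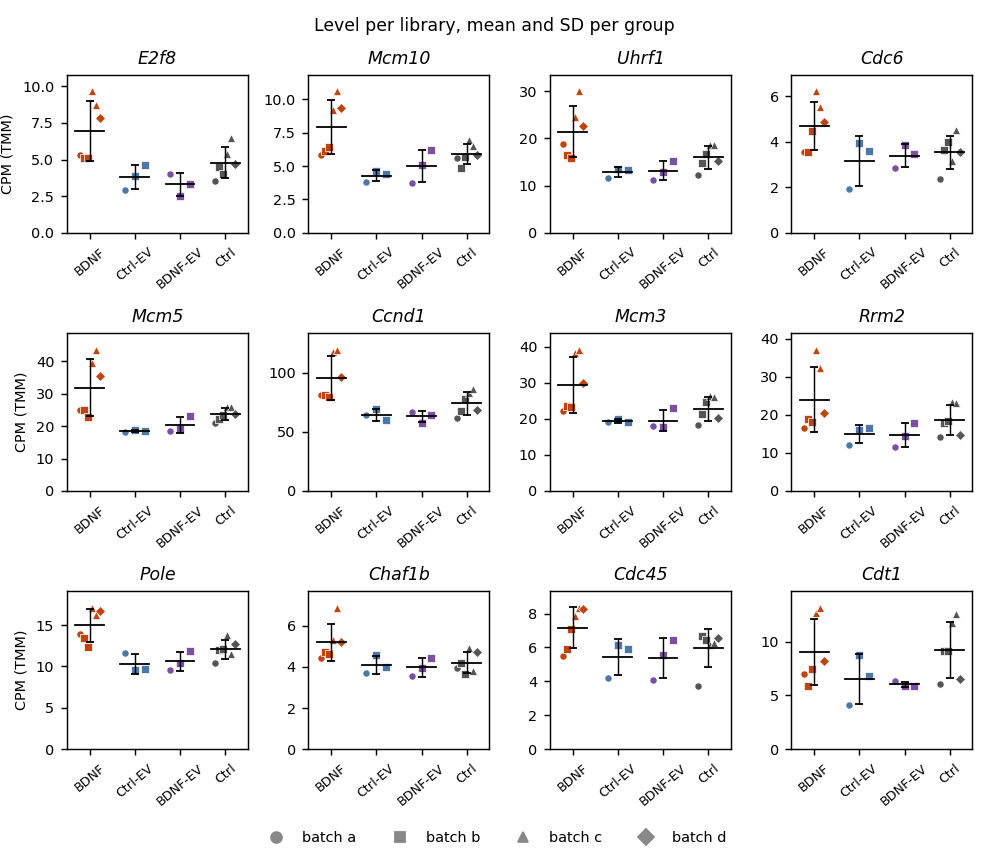
CPM of the 11 called genes and of Cdt1 in each library; bars give the mean and SD of each group and point shapes the batch. For 10 of the 11 called genes (not Rrm2) all BDNF points of batches c and d lie above every Ctrl point, and Cdt1 is highest in batch c in BDNF and Ctrl libraries alike.

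The larger fold changes lay in sets 4 to 6. In a fit with separate effects for each pair of batches, which was added after the data had been seen, 21 of the 35 members were higher with BDNF within batches c and d, beside 6.31% of all tested genes called higher there. None was called within batches a and b, where 3.69% of all tested genes were called higher. The median log2 fold change of the members was 0.33 in batches c and d and 0.07 in batches a and b. Every BDNF library exceeded every Ctrl library of the same batches for 20 members in c and d and for 7 members in a and b, which held for 9.93% of all tested genes in c and d and 10.2% in a and b. In this fit all 6 MCM subunits passed in c and d, as did 3 of the 6 loading and firing factors, 4 of the 9 fork members, 3 of the 5 genes of nucleotide supply, 3 of the 4 chromatin members and 2 of the 5 entry genes. With the libraries of batches c and d fitted alone, 16 members were higher, beside 1649 genes called over all genes, 975 of them higher. Mcm4, Mcm6 and Mcm7 did not pass in that fit (adjusted p = 0.0661, 0.0896 and 0.0579, edgeR).

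The difference between both effects was itself tested, and 0 of the 35 members passed; 4 of all tested genes did (0.0227%). Unadjusted p was under 0.05 for 14 members and for 2352 genes of all tested, and the sign was positive (larger in c and d) for 32 members. The nearest to the threshold were Pold1 and Mcm5. Pold1 had log2 fold changes of 0.58 ± 0.10 in batches c and d and -0.18 ± 0.10 in batches a and b, a difference of 0.76 ± 0.14 (adjusted p = 0.0532, edgeR). Mcm5 had 0.64 ± 0.07 in batches c and d and 0.13 ± 0.08 in batches a and b, a difference of 0.52 ± 0.10 (adjusted p = 0.0581, edgeR). Mcm3 differed by 0.45 ± 0.12 (adjusted p = 0.12) and Rrm2 by 0.45 ± 0.12 (adjusted p = 0.126). The count of members whose difference passed was 4 without BDNF 1, 2 without Ctrl 4 or Ctrl-EV 2, and 1 without Ctrl 1, Ctrl-EV 1, Ctrl-EV 3 or BDNF-EV 1. It was 0 without each of the other libraries.

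**Figure D4:**
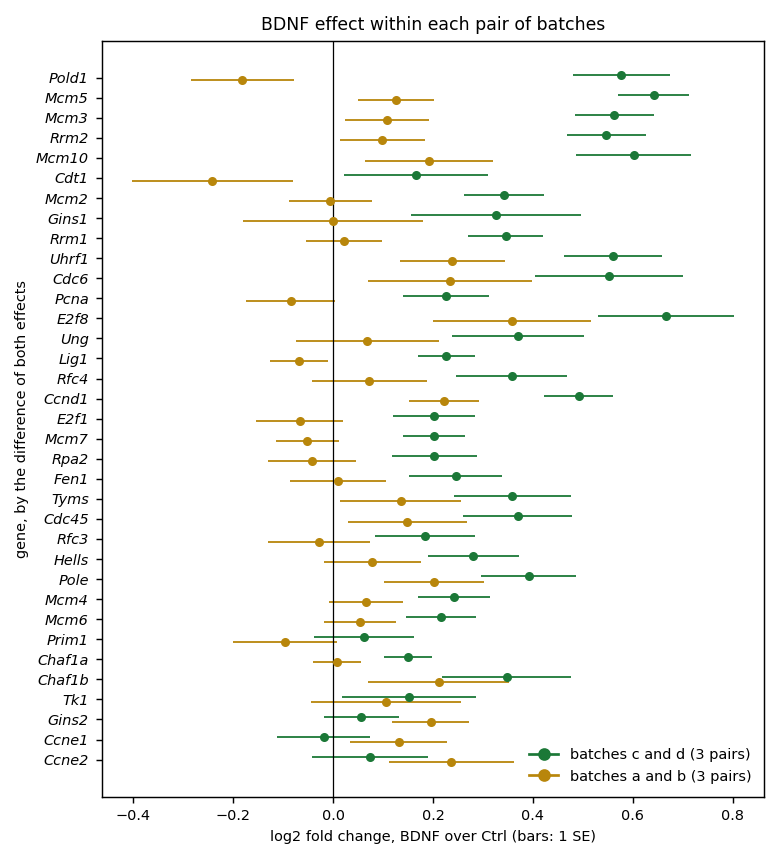
Log2 fold change of BDNF over Ctrl within batches c and d (sets 4 to 6) and within batches a and b (sets 1 to 3), with bars of 1 SE, ordered by the difference. Pold1 lies at 0.58 in c and d and at -0.18 in a and b, and for 32 of the 35 genes the value in c and d is the larger.

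Exposure to vesicles was not followed by a called change of any member. Against Ctrl, 0 of 35 members passed with Ctrl-EV, beside 5 genes of all tested (0.0284%), and 0 members reached an unadjusted p under 0.05, while 1082 genes of all tested did. With BDNF-EV against Ctrl, 0 of 35 passed, beside 4 genes of all tested (0.0227%), with 1 member and 1277 genes of all tested under an unadjusted p of 0.05. Between BDNF-EV and Ctrl-EV no gene at all passed (0%), while 1 member, Rpa2, and 1475 genes of all tested reached an unadjusted p under 0.05. The counts of called members were also 0 with DESeq2 in all 3 comparisons. The median log2 fold change of the members was -0.05 for Ctrl-EV over Ctrl, -0.01 for BDNF-EV over Ctrl and 0.04 for BDNF-EV over Ctrl-EV. The fit takes the BDNF effect as the same in every batch. Libraries of batches c and d therefore also enter both comparisons with Ctrl, though vesicle groups lie only in batches a and b. Within batches a and b alone, 0 members passed in all 3 comparisons. With 3 libraries per vesicle group the median SE was 0.10 for both comparisons with Ctrl, and 0.11 between both vesicle groups. Over the 35 members, the outermost limits of the 95% intervals were -0.56 and 0.59 on the log2 scale for Ctrl-EV over Ctrl. They were -0.67 and 0.49 for BDNF-EV over Ctrl and -0.60 and 0.59 for BDNF-EV over Ctrl-EV. These limits are not the interval of each member, and a member at the median SE had a narrower one. For some members the interval included differences as large as some of those called after direct BDNF. Changes of that size could have gone undetected for those members at this number of libraries.

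Rpa2, a subunit of the complex that coats single-stranded DNA, stood at 11.5, 13.1 and 14.9 CPM in BDNF-EV libraries, at 14.1, 17.3 and 16.9 CPM in Ctrl-EV libraries and at 15.0, 15.1 and 18.7 CPM in Ctrl sets 1 to 3. It was lower with BDNF-EV in each of the 3 sets, by a log2 fold change of -0.29 ± 0.10 against Ctrl-EV (adjusted p = 0.473, edgeR) and of -0.23 ± 0.09 against Ctrl (adjusted p = 0.574, edgeR), and neither difference passed. Cdt1 had the lowest log2 fold change of the members over Ctrl with BDNF-EV, -0.31 ± 0.17 (adjusted p = 0.751, edgeR). For Mcm5, Ctrl-EV sets 1 to 3 held 18.1, 18.8 and 18.6 CPM, against 21.0, 22.3 and 23.4 CPM in Ctrl sets 1 to 3. The fit over all libraries, with 1 BDNF effect for every batch, gave a log2 fold change of -0.13 ± 0.11 (adjusted p = 0.905, edgeR). That value is smaller in size than the differences within these sets.

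Direct BDNF and BDNF-EV were compared in a contrast added after the data had been seen. Here 9 members were higher with BDNF and 0 were lower, beside 8.36% of all tested genes called in either direction, 5% called higher and 3.36% called lower. The 9 were E2f8, Uhrf1, Rrm2, Ccnd1, Mcm5, Pole, Mcm3, Hells and Rpa2. The BDNF averages and ranges below include sets 4 to 6, which hold no BDNF-EV library. The fold changes come from the fit with batch, which takes the BDNF effect as the same in every batch. Sets 4 to 6 therefore also enter these fold changes. E2f8 averaged 6.95 ± 2.05 CPM with BDNF (SD, n = 6) and 3.30 ± 0.77 CPM with BDNF-EV (SD, n = 3). In sets 1 to 3 it stood at 5.27, 5.10 and 5.09 CPM with BDNF and at 4.04, 2.50 and 3.36 CPM with BDNF-EV. Its log2 fold change was 0.73 ± 0.16 (adjusted p = 0.0041, edgeR). Ccnd1 averaged 95.6 ± 18.7 CPM with BDNF and 63.0 ± 4.86 CPM with BDNF-EV. Sets 1 to 3 held 81.0, 80.8 and 79.1 CPM with BDNF and 67.1, 57.7 and 64.4 CPM with BDNF-EV. The log2 fold change of Ccnd1 was 0.42 ± 0.08 (adjusted p = 0.0018, edgeR). Rpa2 stood at 15.2, 16.5 and 19.8 CPM (lowest, median and highest) in BDNF libraries. In sets 1 to 3 it was at 16.1, 15.9 and 15.2 CPM with BDNF and at 11.5, 13.1 and 14.9 CPM with BDNF-EV. Its log2 fold change was 0.32 ± 0.09 (adjusted p = 0.0297, edgeR). Hells stood at 11.3, 12.1 and 16.6 CPM in BDNF libraries, at 9.51, 10.1 and 10.2 CPM in Ctrl-EV sets 1 to 3, at 7.64, 9.14 and 11.2 CPM in BDNF-EV sets 1 to 3, and at 10.2, 11.8 and 12.6 CPM in Ctrl libraries. BDNF sets 1 to 3 of Hells held 11.3, 11.6 and 11.6 CPM, and its log2 fold change was 0.36 ± 0.10 (adjusted p = 0.0209, edgeR). This contrast depended on single libraries, since it called 4 members without BDNF 1, 2 without BDNF-EV 1 and 1 without BDNF-EV 2, and it called 4 within batches a and b alone.

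With group as a term, the level of 21 of the 35 members differed between the 4 batches (edgeR), beside 34.5% of all tested genes. By the batch terms of that fit, 20 of these 21 were highest in batch c and Cdc45 was highest in batch d. That fit takes the BDNF effect as the same in every batch. By Ctrl libraries alone the order differed for some members. Cdc45 averaged 6.58 CPM in batch b and stood at 6.55 CPM in batch d. Pcna averaged 23.5 CPM in batch b and 22.5 CPM in batch c. Mcm7 was also highest in batch b, and Ccne2 and Lig1 were highest in batch d. Among the 21, the 5 with the widest range in the fit were Cdt1, Rrm2, Cdc6, E2f8 and Cdc45, with ranges of 0.69 to 0.97 on the log2 scale. In Ctrl libraries alone, Cdt1 stood at 6.08 CPM in batch a, averaged 9.19 CPM in batch b and 12.2 CPM in batch c, and stood at 6.58 CPM in batch d. Rrm2 was at 14.3 CPM in batch a, 18.1 CPM in batch b, 23.3 CPM in batch c and 14.7 CPM in batch d of the same group. Over all 18 libraries with group as a term, the difference between batches had an adjusted p of 0.000451 for Cdt1, 1.2e-06 for Rrm2, 0.004 for Cdc6, 0.000697 for E2f8 and 0.000297 for Cdc45. At the other end, Chaf1a spanned 0.03 on the log2 scale between batches and did not pass (adjusted p = 0.924). Cdt1 had the widest range between batches of the 35 genes.

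Genes of the same pathway outside the 35 were counted in 6 further lists, to be read beside the 13.8% of all tested genes called in this comparison (7.5% higher and 6.25% lower). Of 20 other licensing and initiation genes, 4 were higher and 1 lower with BDNF against Ctrl, led by Ticrr (log2 fold change 0.59 ± 0.11, adjusted p = 0.000391) and Gmnn (0.52 ± 0.14, adjusted p = 0.0139). Ticrr helps to fire origins, and Gmnn encodes geminin, the inhibitor of Cdt1. Of 22 other genes of the fork, polymerases and clamp, 3 were higher and 0 lower, with Clspn, a checkpoint mediator, at 0.52 ± 0.11 and the clamp loader subunit Chtf18 at 0.39 ± 0.11. Of 15 other genes of nucleotide supply and chromatin replication, 2 were higher and 1 lower, with Atad2 at 0.23 ± 0.07, the dNTP-degrading enzyme Samhd1 at 0.16 ± 0.05 and the histone chaperone Nasp at -0.16 ± 0.03. Of 12 base excision and single-strand repair genes 0 were higher and 1 was lower, the polymerase Polb at -0.14 ± 0.04.

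Regulators of the cycle and genes of mitosis made up the last lists. Of 25 other cyclins, cyclin-dependent kinases, their inhibitors and E2F or retinoblastoma family genes, 7 were higher and 1 lower. The largest were the kinase inhibitor Cdkn1a (30.4 CPM in BDNF libraries and 17.2 CPM in Ctrl libraries on average; log2 fold change 0.84 ± 0.18, adjusted p = 0.00848) and the S phase cyclin Ccna2 (47.5 CPM in BDNF libraries and 29.8 CPM in Ctrl libraries; 0.66 ± 0.08). All 20 genes of the mitosis and G2/M list were higher, with a median log2 fold change of 0.71 beside 0.18 for the 35 members. The mitotic activator Cdc20 averaged 19.1 CPM in BDNF libraries and 9.96 CPM in Ctrl libraries (0.92 ± 0.10), and cyclin B1 (Ccnb1) averaged 9.14 CPM in BDNF libraries and 4.85 CPM in Ctrl libraries (0.88 ± 0.10). The mitosis list passed within each pair of batches for most of its genes, 20 of 20 in c and d and 19 of 20 in a and b, where 0 of the 35 replication genes passed. In the vesicle comparisons 0 genes of these 6 lists passed. The mitosis list had a median log2 fold change of -0.25 with Ctrl-EV over Ctrl (1 of 20 genes positive) and of -0.18 with BDNF-EV over Ctrl (0 of 20 positive), beside -0.00274 and -0.00301 over all tested genes. Both comparisons share the Ctrl libraries.

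The summed level of the 35 members was 673 to 929 CPM in BDNF libraries (median 733), 579 to 612 CPM in Ctrl-EV libraries, 569 to 657 CPM in BDNF-EV libraries and 608 to 738 CPM in Ctrl libraries (median 671). The summed level of the mitosis list was 352 to 625 CPM in BDNF libraries (median 470), 199 to 220 CPM in Ctrl-EV libraries, 187 to 234 CPM in BDNF-EV libraries and 231 to 325 CPM in Ctrl libraries (median 295). BDNF and Ctrl libraries overlapped in the sum of the replication genes and did not overlap in that of the mitosis genes. By set, the log2 ratio of BDNF to Ctrl for the replication sum was 0.17, 0.05 and -0.04 in sets 1 to 3 and 0.32, 0.39 and 0.26 in sets 4 to 6.

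**Figure D5:**
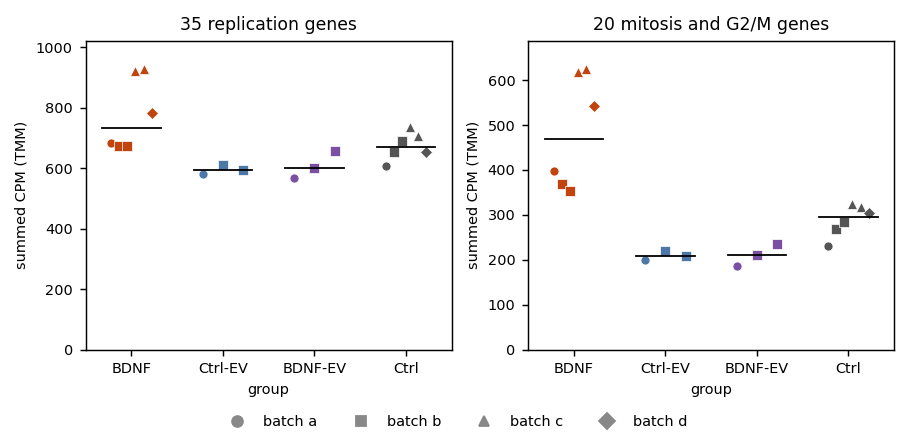
Summed CPM of the 35 replication genes (left) and of the 20 mitosis and G2/M genes (right) per library; lines mark group medians and point shapes the batch. The replication sum reaches 922 and 929 CPM in the BDNF libraries of batch c, and in the mitosis sum every BDNF library lies above every Ctrl library.

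Markers of other cells were measured beside these results, against the same shares of all tested genes (7.5% called higher and 6.25% called lower). Of 12 neural progenitor markers 3 were higher and 1 lower with BDNF, with a summed level of 1725 to 2286 CPM in BDNF libraries and 1782 to 2040 CPM in Ctrl libraries, and the 2 highest sums were those of BDNF 4 and BDNF 5. Nes, the intermediate filament of progenitors, rose by a log2 fold change of 0.27 ± 0.04 and Prom1 fell by 0.18 on the log2 scale. Of 7 oligodendrocyte lineage markers 3 were higher, Pdgfra, Cspg4 and Olig1, while Olig2 and Sox10 did not pass (adjusted p = 0.203 and 0.717, edgeR). Sums of that list were 945 to 1196 CPM in BDNF libraries and 847 to 1014 CPM in Ctrl libraries. Of 8 astrocyte markers Aldh1l1 was higher and Gja1, Gfap and Aqp4 were lower, with sums of 2178 to 2960 CPM in BDNF libraries and 2246 to 2997 CPM in Ctrl libraries. Of 9 neuronal markers 4 were higher and 2 lower, with sums of 5880 to 6660 CPM in BDNF libraries and 5850 to 6659 CPM in Ctrl libraries. Of 9 vascular and fibroblast markers 2 were higher and 1 lower, with sums of 76.6 to 135 CPM in BDNF libraries and 101 to 137 CPM in Ctrl libraries. Of 8 microglia and macrophage markers 3 had enough counts and Ptprc was higher, at 0.729 CPM in BDNF libraries and 0.341 CPM in Ctrl libraries on average. Tmem119, Itgam and Cx3cr1 had 0 counts in 9, 8 and 5 libraries. None of the 3 erythroid markers had enough counts. The part of these cell types in the changes of the replication genes was not tested.

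Promoter sequences were available for 29 of the 35 genes, as 34 windows of 250 bases before to 50 bases after a transcription start (RefSeq, GRCm38.p6). They were searched on both strands for the E2F-like words TTTCCCGC, TTTCGCGC, TTTGCCGC and TTTGGCGC and for the word GGCGGGAA, which overlaps TTTCCCGC read on the other strand. At least 1 of these words occurred in 15 of the 29 genes (51.7%), against 4.46% of the 27025 genes in the promoter table. Among the members that were higher with BDNF the words occurred in 4 of 9 (44.4%), and among the other members in 11 of 20 (55.0%). The stretches below lie before the RefSeq start site of their window, read 5′ to 3′ on the strand of the gene, with the words in capitals. They are shown because Mcm5, Cdc6 and Uhrf1 rose with BDNF while Mcm6, Hells and Prim1, which carry the same words, did not pass.
Mcm5 (chr8:75109336-75109387, + strand): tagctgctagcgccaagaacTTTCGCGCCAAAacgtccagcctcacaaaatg
Cdc6 (chr11:98907993-98908040, + strand): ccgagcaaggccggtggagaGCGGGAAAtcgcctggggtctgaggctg
Uhrf1 (chr17:56303269-56303316, + strand): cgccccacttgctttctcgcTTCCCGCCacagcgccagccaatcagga
Mcm6 (chr1:128359725-128359835, - strand): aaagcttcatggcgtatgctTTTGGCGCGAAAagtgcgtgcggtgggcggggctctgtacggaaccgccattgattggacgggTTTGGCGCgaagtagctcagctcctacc
Hells (chr19:38930908-38930955, + strand): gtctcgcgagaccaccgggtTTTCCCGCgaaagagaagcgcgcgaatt
Prim1 (chr10:128015180-128015214, + strand): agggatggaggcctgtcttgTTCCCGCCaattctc
The start sites used for Cdc6 and Hells lie inside the gene spans of the annotation, so those stretches are upstream of that start only. The words began 153 bases before the start in Mcm5, 138 in Cdc6, 48 in Uhrf1, 110 in Mcm6, 62 in Hells and 15 in Prim1. In Mcm3 the words lay after the start, from base 18 on. A word in a window is a match of letters and says nothing on whether a factor binds there.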

How the data were processed

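RNA of 18 hippocampal samples (6 BDNF, 3 Ctrl-EV, 3 BDNF-EV, 6 Ctrl) was sequenced as 50 base single reads from 500 ng of RNA per library, per the labels' protocols. The values analysed are raw counts per gene deposited by the authors, with 16274937 to 36835780 counts per library. The tools named include cutadapt 1.8.1 and CASAVA 1.8.2 and the build mm10, per the submitters' processing notes. Aligner, counter and annotation: not given in the sources used here. Entries without a gene symbol (327) held 0.0247% of the counts and went through the same count filter as all other entries.

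Genes were kept with edgeR 4.0.16 (filterByExpr, minimum count 10; R 4.3.3), leaving 17609, and fitted with TMM factors, a robust quasi-likelihood model over all 18 libraries, and group and batch as terms. Adjusted p-values are Benjamini-Hochberg values over all genes tested, called under 0.05, and SEs and 95% intervals come from that fit. Alternatives were DESeq2 1.42.0, RLE size factors, no filter, no batch term, the set as a block, only the groups compared, single batch pairs, and leaving out each library. Same-set libraries deviated together. Correlations were 0.349 to 0.577 between BDNF and Ctrl and 0.295 to 0.446 between Ctrl-EV and Ctrl. They were 0.297 to 0.438 between BDNF-EV and Ctrl, and 0.185 to 0.564 between BDNF-EV and Ctrl-EV. Same-set libraries also share a batch, and no correlations between different sets of a batch are given. These values therefore cannot tell pairing by set from a shared batch. In the counts by set, the set numbers of the labels were taken to pair the samples. The main fit holds the batch and not the set, so pairing within a batch entered only with the set as a block. The interaction of BDNF with the batch pair and the contrast of BDNF with BDNF-EV were added after the data had been seen.

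The 35 members and all other lists were chosen with earlier results of these data known. Members called in at least 1 comparison between groups and the 5 called members with the widest range between batches are given in full, and of each other list the 2 largest called changes are named. Other named genes, such as Pold1 by set and Nasp, and the promoter stretches were chosen after their values were seen. Samples of the series other than these 18 were not used here. The result of 1 marker gene is not reported here.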

Additional observations from a re-analysis of the deposited data

Results flagged for a closer look

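Among 70 groups of 6 libraries (each member in BDNF and in Ctrl), 3 held a library that stood apart from the others by Dixon's criterion, for which chance gives about 1 in 20. Chaf1b stood at 6.89 CPM in BDNF 5, with the next BDNF library at 5.30 CPM. Without BDNF 5 its log2 fold change over Ctrl was 0.21 (adjusted p = 0.152, edgeR). Cdc45 stood at 3.72 CPM in Ctrl 1, below the next Ctrl library at 6.13 CPM, and without Ctrl 1 its log2 fold change was 0.24 (adjusted p = 0.0864, edgeR). Ung stood at 4.50 CPM in Ctrl 4, above the next Ctrl library at 3.97 CPM, and its difference between BDNF and Ctrl had not passed (adjusted p = 0.141, edgeR).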

How the results depend on the processing

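For BDNF against Ctrl, the 11 called members became 0 without the batch term and 0 within batches a and b alone, and 16 within batches c and d alone. The count was 10 with DESeq2, 15 without the filter, 9 with only these groups, 11 with RLE factors, and 8 to 13 when a library was left out. With the replicate block (set) it was 10, since the Chaf1b call was lost (adjusted p = 0.0674); the block changed no call of a member in the vesicle comparisons with Ctrl or between vesicle groups, and gave 8 in place of 9 for BDNF against BDNF-EV. Over all genes the 2422 calls became 1067 within batches a and b, 1649 within batches c and d and 843 without the batch term. They became 1795 to 2520 when a library was left out. For BDNF against BDNF-EV, 4 members were called within batches a and b and 1 to 13 when a library was left out, and the 1472 calls over all genes became 870 without the batch term and 704 to 1599 when a library was left out. The vesicle comparisons called 0 members under every alternative run. Over all genes, BDNF-EV against Ctrl gave 12 calls within batches a and b, 26 with DESeq2, 2 without the batch term, 156 without the filter, 235 with only these groups, and 4 to 14 when a library was left out. BDNF-EV against Ctrl-EV gave 167 without the filter and 0 to 1 when a library was left out, and Ctrl-EV against Ctrl gave 2 without the batch term, 38 without the filter and 3 to 7 when a library was left out. For the difference between batches, 19 to 24 members and 5074 to 6567 genes passed when a library was left out, and 3910 genes with only Ctrl and BDNF libraries. For the difference of the BDNF effect between batches, 5 members and 356 genes passed without the filter, and 0 to 4 members and 0 to 80 genes when a library was left out. The cause of these shifts was not tested.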
